A study of Mus musculus with 30 samples.

Results

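Solute carriers are membrane proteins that move ions, nutrients and metabolites across the cell surface and across the membranes of mitochondria, vesicles and the Golgi apparatus. Their messenger RNAs were followed here in the left ventricle of C57BL/6 mice across 8 groups. Members were all genes whose platform symbol begins with Slc and a number, without the glucose carriers Slc2a1 and Slc2a4, the sodium-calcium exchanger Slc8a1 and the Slc27a fatty acid carriers. This gave 143 genes of the 8251 that could be named, measured by 174 probe sets. Of the 143 members, 116 had 1 probe set, 24 had 2 and 3 had 3 or more. Where a gene had several, the brightest across arrays represented it, and the others served as a check. By symbol the rule also took in proteins that move nothing themselves, the scaffolds Slc9a3r1 and Slc9a3r2 and the adaptor Slc4a1ap. Members were put in transport groups by family number, so the amino acid group also holds peptide and neurotransmitter carriers. Slc4a1ap was counted in the ion and phosphate group, and the scaffolds were kept apart.

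The 30 arrays came from male and female mice, killed at 2 months of age, that were wild type or HCM and ate a soy-based or a casein-based diet. HCM commonly abbreviates hypertrophic cardiomyopathy, in which the ventricular wall thickens; the labels give that abbreviation alone. Each array held RNA pooled from 2 animals. Each group held 4 arrays, apart from the soy HCM groups of either sex, which held 3. Values are log2 expression as deposited, so a difference of 1 is a doubling; differences are given ± their standard error and levels ± SD. Values in parentheses are differences unless marked as adjusted p. A gene was called when its adjusted p (limma, Benjamini-Hochberg over all 8251 genes) was below 0.05. As bulk tissue was measured, fewer cells of a type and less RNA per cell cannot be told apart, and p-values measure the spread between pooled samples.

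The heart draws most of its energy from oxidation in mitochondria, whose inner membrane metabolites cross largely through carriers of the Slc25 family: adenine nucleotide carriers trade ADP for ATP, and others bring in phosphate, malate and acylcarnitine. Monocarboxylate carriers of the Slc16 family let lactate, pyruvate and ketone bodies in and out. Amino acid carriers feed protein synthesis and hold the large taurine and creatine pools of cardiomyocytes, ion carriers set intracellular pH, chloride and volume, and the Slc30 and Slc39 families move zinc in opposite directions.

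Promoters of 4 members are shown because the results below turn on them: Slc16a1 was called higher in HCM on both diets, and Slc25a4, Slc25a11 and Slc25a39 were called higher on casein in both genotypes. Each line runs 5′ to 3′ on the gene's strand over 300 bases around the RefSeq start (build GRCm38.p6), and capitals mark CACGTG (the E-box) and CCAAT, searched on both strands; the NRF1 motif was searched as well.
Slc16a1: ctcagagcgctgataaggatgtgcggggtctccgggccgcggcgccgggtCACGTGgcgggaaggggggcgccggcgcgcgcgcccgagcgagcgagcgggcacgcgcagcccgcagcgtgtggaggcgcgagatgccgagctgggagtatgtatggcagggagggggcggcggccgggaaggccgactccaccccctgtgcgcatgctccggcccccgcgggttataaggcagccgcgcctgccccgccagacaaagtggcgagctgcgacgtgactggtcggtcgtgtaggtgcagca
Slc25a4: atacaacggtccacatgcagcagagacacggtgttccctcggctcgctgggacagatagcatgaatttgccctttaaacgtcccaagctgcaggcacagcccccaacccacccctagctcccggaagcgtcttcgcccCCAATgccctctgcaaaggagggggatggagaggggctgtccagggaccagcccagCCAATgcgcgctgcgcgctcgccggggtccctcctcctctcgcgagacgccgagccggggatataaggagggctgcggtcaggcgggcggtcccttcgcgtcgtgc
Slc25a11: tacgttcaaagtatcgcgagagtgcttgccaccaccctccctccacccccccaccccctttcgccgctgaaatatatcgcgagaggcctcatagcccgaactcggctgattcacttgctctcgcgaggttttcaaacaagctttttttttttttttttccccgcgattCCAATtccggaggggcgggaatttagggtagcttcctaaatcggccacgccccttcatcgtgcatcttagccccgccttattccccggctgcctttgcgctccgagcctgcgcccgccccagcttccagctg
Slc25a39: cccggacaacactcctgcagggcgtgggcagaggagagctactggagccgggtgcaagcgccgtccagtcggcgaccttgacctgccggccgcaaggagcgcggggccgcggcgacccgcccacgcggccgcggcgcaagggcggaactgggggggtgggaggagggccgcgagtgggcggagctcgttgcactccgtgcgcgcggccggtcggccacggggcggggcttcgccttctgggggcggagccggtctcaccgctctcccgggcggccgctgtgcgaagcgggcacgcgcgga
The windows lie at chr3:104638414-104638713 on the plus strand for Slc16a1, and on the minus strand at chr8:46211013-46211312 for Slc25a4, chr11:70646990-70647289 for Slc25a11 and chr11:102407468-102407767 for Slc25a39. The Slc16a1 window held 1 CACGTG, a motif found in 7.15% of the 32851 promoter windows of all genes and in 12.6% of the 167 windows of the 118 members with an entry. CCAAT occurred at 2 positions for Slc25a4 and at 1 for Slc25a11; 37.4% of all windows and 29.9% of the member windows held it. None of these 4 windows held the NRF1 motif, found in 4.6% of all windows and 4.79% of the member windows. The 3 Slc25 promoters thus shared no searched motif.

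Some arrays stood apart. The mean log2 signal of the bacterial poly-A control RNAs was 5.94 to 6.41 on the 8 casein HCM arrays and 4.34 to 4.96 on the other 22. The casein wild-type arrays divided by the hybridization controls (BioD minus BioC) into set A (1.38 to 1.74; in each sex the arrays numbered 1 and 2) and set B (0.64 to 0.80; those numbered 3 and 4). The same control also separated soy HCM (1.62 to 1.82) from soy wild type (0.99 to 1.39) without overlap, and it was 1.15 to 1.38 on casein HCM. Sets A and B share diet and genotype, and 15 of 143 members were called between them (10 higher in A, 5 lower), against 10.8% of all genes. Casein HCM differed from set A in 48 members (14 higher, 34 lower; 42.8% of all genes) and from set B in 46 (18 higher, 28 lower; 42.6%). Set A differed from soy wild type in 52 (20 higher, 32 lower; 35.3%) and set B in 70 (24 higher, 46 lower; 47.2%). A genotype or diet difference was always also a difference between such array sets, so these cannot be told apart. A further fit, called the set-block fit, treats the set as a random effect. In that fit the correlation within sets rests on A and B alone, as each other set is a whole combination of diet and genotype. A call that held in the set-block fit is therefore still not separated from the array set. Male soy wild-type replicate 2 lay far from the other 3 arrays of its group for Slc20a1, Slc25a11, Slc25a36, Slc32a1 and Slc6a8; without it, 21 members were called for HCM on soy and 74 for diet in wild type, against 24 and 72 with it. Median log2 expression ran from 6.11 to 6.23 over arrays, and no depth applies to hybridization data; the number of arrays limits the precision.

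Solute carrier genes differed between HCM and wild type and between the diets, and most differences were small. On soy, 11 members rose and 13 fell in HCM, against 12.3% of all genes higher and 12.7% lower. On casein, 20 rose and 38 fell, against 26.9% and 22.7%. For each comparison the members' share stood near or below that of all genes. All genes together were called at 25% on soy and 49.6% on casein, and the members at 16.8% and 40.6%. On casein against soy, 26 members rose and 46 fell in wild type (50.3%, against 47% of all genes; 21.6% higher and 25.4% lower), and 30 rose and 50 fell in HCM (55.9%, against 62.1%; 31.9% higher and 30.1% lower). The median difference over the 143 members was -0.024 for HCM on soy, -0.035 for HCM on casein, -0.076 for diet in wild type and -0.052 for diet in HCM; over all genes it was -0.012, 0.012, -0.023 and 0.0084. A change beyond 1.5-fold was reached by 3, 3, 5 and 16 members in the same order. With arrays centred on their medians the split was 8 higher and 52 lower for HCM on casein and 34 higher and 30 lower for diet in wild type, so the balance of directions moved with scaling. In the set-block fit, 3, 24, 40 and 53 members were called; on soy these were Slc6a6, Slc23a2 and Slc2a8, so every other HCM call on soy given here was lost in the set-block fit. Averaged over the diets, 10 members rose and 26 fell in HCM (25.2%, against 34.1% of all genes, 18.7% higher and 15.4% lower; 5 higher and 37 lower with centred arrays, and 8 called in the set-block fit). Averaged over the genotypes, 32 rose and 61 fell on casein (65%, against 62.9%, 30.9% higher and 32% lower). Arrays of the sides compared did not overlap for 8 members in HCM on soy (8.31% of all genes), 13 in HCM on casein (15.1%), 19 for diet in wild type (11.5%) and 43 for diet in HCM (37.9%). Over both genotypes this held for 10 members for diet (4.16%), and over both diets for 0 for HCM (0.0727%).

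**Figure D1:**
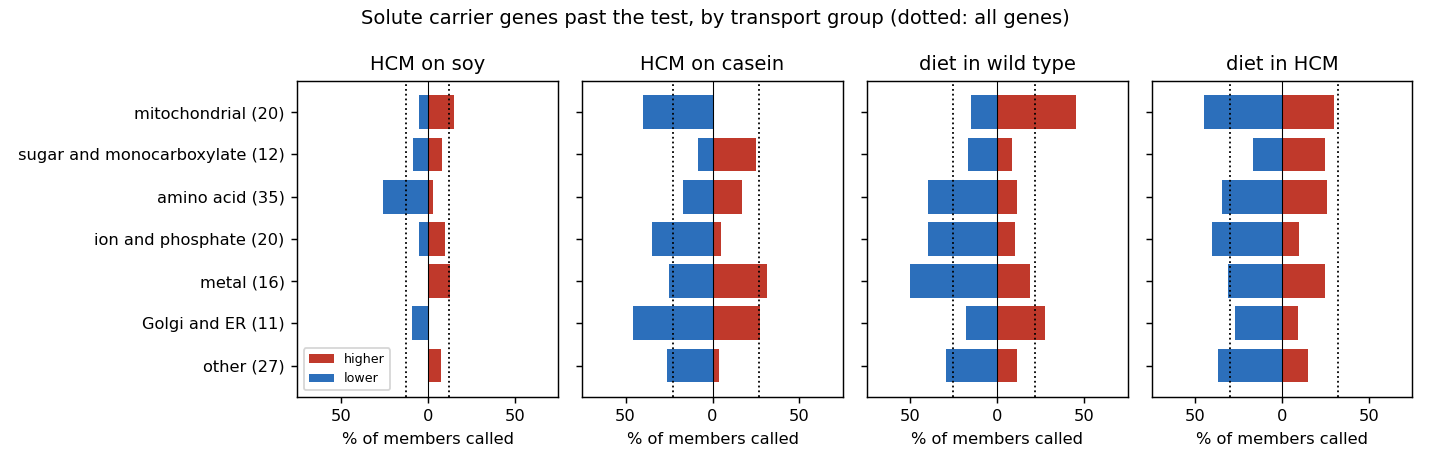
Share of members called higher (red, right) or lower (blue, left) in each transport group for the HCM effect on each diet and the casein-minus-soy effect in each genotype; the number of members stands beside each group, dotted lines give the shares over all 8251 genes, and the 2 scaffold genes are not drawn. The 20 mitochondrial carriers had 9 higher and 3 lower for diet in wild type, and 0 higher and 8 lower for HCM on casein.

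Slc16a1 was 1 of the 2 members called in the same direction in HCM on both diets. This gene of the monocarboxylate carrier MCT1, which passes lactate, pyruvate and ketone bodies, rose in HCM by 0.57 ± 0.11 on soy (adjusted p = 0.000731, limma) and by 0.73 ± 0.10 on casein (adjusted p = 1.78e-06). Its lowest, median and highest values were 4.83, 5.43 and 5.56 in soy wild type (n = 8) and 5.56, 6.03 and 6.19 in soy HCM (n = 6). On casein they were 5.17, 5.58 and 6.01 in wild type (n = 8) and 6.07, 6.37 and 6.52 in HCM (n = 8). On soy the lowest HCM array, a male, stood level with the highest wild-type array, and on casein the lowest HCM array lay above the highest wild-type array. The casein difference was 0.84 ± 0.13 against set A and 0.62 ± 0.13 against set B. In the set-block fit the casein call held (adjusted p = 0.000593) and the soy call did not (adjusted p = 0.0643). No difference between the HCM effects on the 2 diets was called (0.16 ± 0.15, adjusted p = 0.413).

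Of the 12 genes of this group, 1 rose and 1 fell in HCM on soy, and 3 rose and 1 fell on casein (16.7% and 33.3% called, below the 25% and 49.6% of all genes). Slc2a8 (GLUT8), an intracellular hexose carrier, fell in HCM on soy by 0.35 ± 0.053 and was at 0.048 ± 0.049 on casein, and the difference between the diets was called (adjusted p = 7.77e-05). It is the 1 member of this group whose soy call held in the set-block fit (adjusted p = 0.0172); its dim probe set was at -0.095 on soy and 0.34 on casein. Slc50a1, the sugar efflux carrier SWEET1, rose in HCM on casein by 0.29 ± 0.064; against set B alone, which was higher than set A, that call was lost (0.13 ± 0.058). The glucose carrier Slc2a3 (GLUT3) differed between casein and soy wild type by 0.26 ± 0.091, a call that ended in the set-block fit (adjusted p = 0.155) and without male soy wild-type replicate 3 (0.21) or male casein wild-type replicate 2 (0.22). Slc5a11, a sodium-coupled inositol carrier, fell on casein in wild type by 0.38 ± 0.060.

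**Figure D2:**
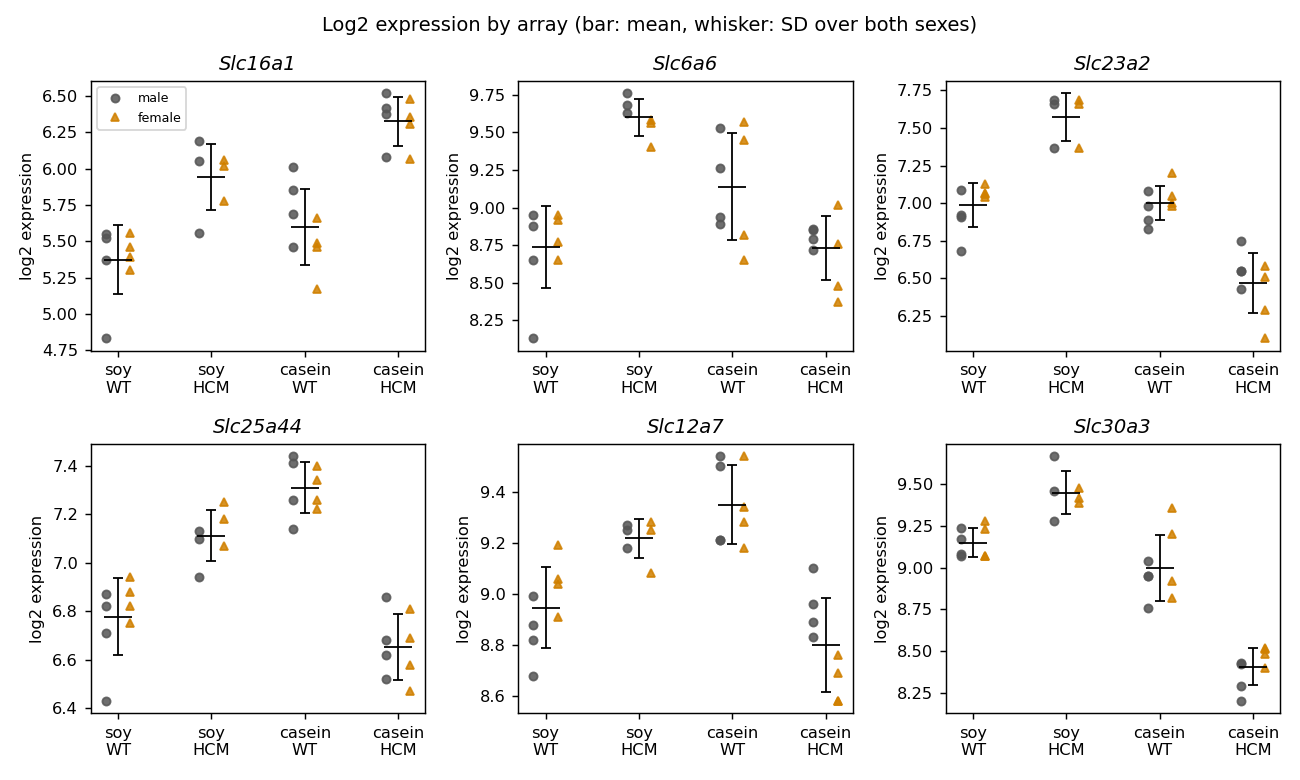
Log2 expression of 6 members on each array (circles male, triangles female) in the 4 combinations of diet and genotype; bars are means and whiskers SD over both sexes (n = 8, or 6 in soy HCM). Slc16a1 was higher in HCM on both diets, while the other 5 were higher in HCM on soy and lower in HCM on casein.

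Of the 20 mitochondrial carriers, 9 rose and 3 fell on casein in wild type, 6 rose and 9 fell in HCM, and 0 rose and 8 fell in HCM on casein. Over all genes these splits were 21.6% higher and 25.4% lower, 31.9% and 30.1%, and 26.9% and 22.7%, and the 40% called for HCM on casein lay below the 49.6% of all genes. With arrays centred on their medians, 10 rose and 1 fell on casein in wild type, 6 rose and 9 fell in HCM, and 0 rose and 9 fell in HCM on casein. Slc25a4, the adenine nucleotide carrier ANT1 of heart and muscle, rose on casein by 0.37 ± 0.071 in wild type (adjusted p = 0.000125, limma) and 0.29 ± 0.077 in HCM (adjusted p = 0.00182). Levels (lowest, median and highest) were 11.67, 12.26 and 12.45 in soy wild type and 12.48, 12.59 and 12.65 in casein wild type. In HCM they were 12.16, 12.35 and 12.40 on soy and 12.49, 12.61 and 12.71 on casein, and in both genotypes the lowest casein array was above the highest soy array. Slc25a11, the oxoglutarate carrier of the malate-aspartate shuttle, rose by 0.48 ± 0.10 (wild type) and 0.60 ± 0.11 (HCM). In male soy wild-type replicate 2 it read 9.13 against 10.02 to 10.17 in the other 3 arrays of that group; without that array the wild-type difference was 0.36 (adjusted p = 2.51e-05). Slc25a39, a mitochondrial glutathione carrier, rose by 0.71 ± 0.072 (wild type) and 0.46 ± 0.078 (HCM), from 9.09 ± 0.17 in soy wild type to 9.80 ± 0.15 in casein wild type. All 3 genes were also called on casein in both genotypes in the set-block fit, and none was called for HCM on either diet.

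Slc25a5 (ANT2), the form of the adenine nucleotide carrier found in dividing and non-muscle cells, ran the other way on its brightest probe set. It fell on casein by 0.55 ± 0.059 in HCM, and in HCM on casein by 0.47 ± 0.055 (adjusted p = 7.36e-08). Its 2 other probe sets were at -0.36 (called) and -0.14 (not called) for HCM on casein, but at 0.51 and 0.38 for diet in wild type, where the brightest was at -0.14. The direction of the diet difference thus depended on the probe set, and all 3 were below 0 for HCM on casein. The brightest probe set is of the type that the manufacturer marks as shared within a gene family.

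Of the other mitochondrial carriers, Slc25a25 (a calcium-regulated ATP-magnesium and phosphate carrier) fell in HCM on casein by 0.40 ± 0.052 and was at 0.042 ± 0.056 on soy. Slc25a44, a carrier of branched-chain amino acids, changed in opposite directions in HCM: it rose by 0.33 ± 0.071 on soy (adjusted p = 0.00126) and fell by 0.65 ± 0.066 on casein (adjusted p = 4.86e-09). The lowest, median and highest arrays read 6.43, 6.82 and 6.94 in soy wild type, 6.94, 7.12 and 7.25 in soy HCM, 7.14, 7.30 and 7.44 in casein wild type and 6.47, 6.65 and 6.86 in casein HCM. The casein ranges did not overlap, and casein HCM sat at the level of soy wild type. Slc25a36, a pyrimidine nucleotide carrier, fell on casein in HCM by 0.69 ± 0.12, and Slc25a10, the dicarboxylate carrier, rose by 0.26 ± 0.072, which was not called in the set-block fit (adjusted p = 0.062). Slc25a3, the phosphate carrier, fell in HCM on casein by 0.18 ± 0.054, a call lost in the set-block fit (adjusted p = 0.0777) and against set B alone. Slc25a20, the carnitine-acylcarnitine carrier that admits long-chain fatty acids, was at 0.078 ± 0.12 for HCM on soy and -0.25 ± 0.11 on casein, neither called. It was higher on casein in wild type by 0.33 ± 0.11, but differed as much between sets B and A of the casein wild-type arrays (A minus B -0.48 ± 0.16), and in the set-block fit it was not called (adjusted p = 0.107).

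**Figure D3:**
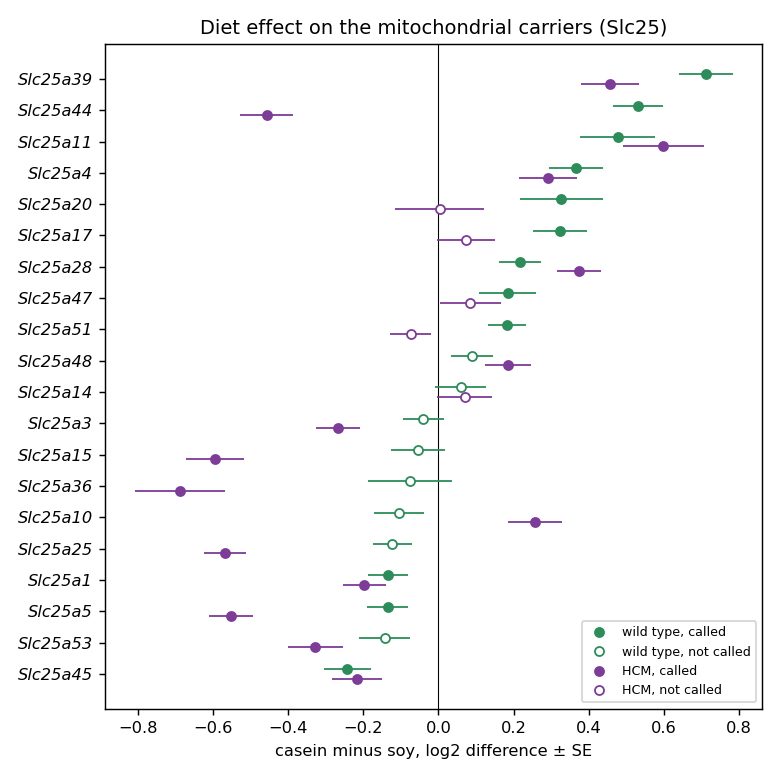
Casein-minus-soy log2 difference ± SE of the 20 mitochondrial carriers in wild type (green) and HCM (purple); filled points passed the test. Slc25a4, Slc25a11 and Slc25a39 were called higher in both genotypes, and Slc25a44 was higher in wild type and lower in HCM.

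The taurine carrier Slc6a6 had the widest HCM difference of the amino acid carriers on soy. Taurine is the most abundant free amino acid of the heart. Slc6a6 rose in HCM on soy by 0.86 ± 0.13 (adjusted p = 5.02e-05, limma), with lowest, median and highest values of 8.13, 8.83 and 8.95 in wild type and 9.40, 9.61 and 9.76 in HCM, which did not overlap. The other probe set also rose on soy (0.70, adjusted p = 4.30e-05), and the call held in the set-block fit (adjusted p = 0.00902). On casein the values were 8.65, 9.10 and 9.57 in wild type and 8.37, 8.78 and 9.02 in HCM, a difference of -0.41 ± 0.12 that was not called in the set-block fit. That difference was not uniform: casein HCM lay -0.72 ± 0.12 from set A and -0.095 ± 0.12 from set B, set A was above set B by 0.62 ± 0.13, and the other probe set was called higher (0.24). The HCM difference on casein minus that on soy was -1.27 ± 0.18 (adjusted p = 3.06e-06), and it held in the set-block fit (adjusted p = 0.000541). Slc6a8, the creatine carrier that supplies the phosphocreatine pool, was at 0.065 ± 0.082 for HCM on soy and 0.064 ± 0.076 on casein, neither called.

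Of the 35 genes of the amino acid group, 4 rose and 14 fell on casein in wild type, and 9 rose and 12 fell in HCM. The shares called were 51.4% and 60%, near those of all genes (47%, with 21.6% higher and 25.4% lower, and 62.1%, with 31.9% and 30.1%). With centred arrays, 5 rose and 12 fell in wild type and 9 rose and 12 fell in HCM. Slc7a5 (LAT1), the leucine-preferring exchanger, fell by 0.34 ± 0.044 (wild type) and 0.27 ± 0.048 (HCM). Slc7a1 (CAT1), the arginine and lysine carrier, fell by 0.61 ± 0.075 and 0.36 ± 0.081, and Slc1a4 (ASCT1), a carrier of alanine, serine and cysteine, by 0.25 ± 0.048 and 0.50 ± 0.052. The last 3 genes were also called in both genotypes in the set-block fit. Slc1a5 (ASCT2), a glutamine carrier, moved the other way, rising by 0.30 ± 0.074 and 0.35 ± 0.080. Slc1a6, a glutamate carrier known from cerebellum, rose on casein in HCM by 0.31 ± 0.082, a call lost in the set-block fit (adjusted p = 0.0505). Slc3a2, the heavy chain that pairs with Slc7a5, was at -0.17 and -0.068 for HCM on soy and casein and 0.070 and 0.17 for diet in wild type and HCM. It was called lower in HCM on soy (adjusted p = 0.0346) and higher for diet in HCM (adjusted p = 0.0129). Neither call held in the set-block fit (adjusted p = 0.310 and adjusted p = 0.124); the first was also lost on leaving out any 1 of 8 arrays (-0.20 to -0.14 over all single arrays left out), and the second on leaving out male soy HCM replicate 2. Slc6a20b fell in HCM on soy by 0.26 ± 0.075 and was not called in the set-block fit (adjusted p = 0.215).

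Slc38a2 (SNAT2), a sodium-coupled carrier of small neutral amino acids, varied widely between arrays. Across arrays the lowest, median and highest levels were 6.37, 7.95 and 8.44 in soy wild type, 7.92, 8.48 and 8.64 in soy HCM, 6.45, 7.17 and 7.78 in casein wild type and 7.32, 7.59 and 8.04 in casein HCM, with the soy HCM arrays above all casein wild-type arrays and the other pairs of groups overlapping. The HCM difference on soy was 0.55 ± 0.21 and was not called. The mean HCM difference over both diets was 0.52 ± 0.14 (adjusted p = 0.00616) and the mean diet difference -0.66 ± 0.14 (adjusted p = 0.000217); in the set-block fit the diet difference alone was called (adjusted p = 0.112 and adjusted p = 0.0117). Its 3 dimmer probe sets were at -0.027, -0.17 and -0.028 for the mean HCM difference, and the second was called lower, against the rise on the brightest (adjusted p = 0.0159 over all probe sets). Dimmer probe sets were also called against the brightest for HCM on casein (-0.13 and -0.24, against 0.49) and for diet in wild type (0.13, against -0.63), so the direction depended on the probe set. Slc7a7, the light chain of a cationic amino acid exchanger, fell in HCM on soy by 0.30 ± 0.058 and was at 0.00064 on casein. Slc38a10 rose in HCM on casein by 0.29 ± 0.059, and Slc6a9 (GLYT1), a glycine carrier, by 0.23 ± 0.058; the Slc6a9 call was lost with set A alone as wild type (adjusted p = 0.115). Genes known for neurons were measured too: Slc6a4, the serotonin carrier, fell on casein by 0.39 ± 0.085 (wild type) and 0.64 ± 0.092 (HCM), and Slc18a3, the vesicular acetylcholine carrier, fell in HCM on soy by 0.30 ± 0.081. The Slc6a4 probe set, like the brightest of Slc25a5, is of the type marked as shared within a gene family. Of 3 measured nerve and Schwann cell markers, 0 rose and 2 fell on casein in wild type (summed level 8.02 to 8.19 on soy and 7.60 to 7.95 on casein). None was called for diet in HCM (7.88 to 8.07 and 7.74 to 8.09), 1 rose and 1 fell in HCM on soy, and 2 rose and 0 fell in HCM on casein; the part of nerve cells in these carriers was not tested. Slc32a1, the vesicular GABA carrier, was lower in HCM by 0.42 ± 0.13 on soy and 0.34 ± 0.12 on casein. Its mean log2 level over all arrays was 4.4, no detection calls were used here, neither difference was called in the set-block fit (adjusted p = 0.234 and adjusted p = 0.137), and male soy wild-type replicate 2 read 5.26 against 4.40 to 4.48 in its group. The soy call was lost without male soy HCM replicate 3 (adjusted p = 0.0516), and the casein call without male casein wild-type replicate 2 (adjusted p = 0.0517) or without female casein wild-type replicate 3 (adjusted p = 0.0555).

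Of the 20 genes of the ion and phosphate group, 2 rose and 8 fell on casein in wild type, and 2 rose and 8 fell in HCM. Those lower in wild type include the adaptor Slc4a1ap. The share called was 50% in each, against 47% (21.6% higher, 25.4% lower) and 62.1% (31.9% and 30.1%) of all genes. With centred arrays, 2 rose and 6 fell in wild type and 2 rose and 8 fell in HCM. Slc4a3 (AE3) ran the other way; it is the chloride-bicarbonate exchanger of heart muscle that moves base out of the cell. It rose on casein by 0.58 ± 0.079 in wild type (adjusted p = 9.00e-07) and fell in HCM on casein by 0.43 ± 0.079 (adjusted p = 5.15e-05). Its lowest, median and highest values were 9.88, 10.02 and 10.29 in soy wild type, 9.77, 9.87 and 10.22 in soy HCM, 10.34, 10.64 and 10.85 in casein wild type and 9.85, 10.26 and 10.42 in casein HCM. Casein wild type was the highest of the 4, with set B above set A (-0.36 ± 0.11 for A minus B), and casein HCM was below both (-0.25 ± 0.099 against A and -0.61 ± 0.099 against B). On soy the HCM difference was -0.11 ± 0.085, not called.

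Among cation-chloride cotransporters, which set cell chloride and volume, Slc12a7 (KCC4) rose in HCM on soy by 0.27 ± 0.069 and fell on casein by 0.55 ± 0.064. Levels (lowest, median and highest) were 8.68, 8.95 and 9.19 in soy wild type, 9.08, 9.25 and 9.28 in soy HCM, 9.18, 9.31 and 9.54 in casein wild type and 8.58, 8.79 and 9.10 in casein HCM. Soy HCM overlapped soy wild type and casein HCM lay below all casein wild-type arrays. Slc12a2 (NKCC1), the inward cotransporter, fell on casein in HCM by 0.54 ± 0.11 and was at -0.11 ± 0.10 in wild type. Slc12a4 (KCC1), an outward cotransporter, rose on casein in HCM by 0.40 ± 0.079. Slc4a4 (NBCe1), the sodium-bicarbonate cotransporter that brings base into cardiomyocytes, fell on casein in HCM by 0.78 ± 0.12 without overlap of the 2 diets and was at -0.15 ± 0.11 in wild type. Against wild type, Slc4a4 was called higher in HCM on soy (0.36 ± 0.12) and lower in HCM on casein. Both of these HCM calls were lost in the set-block fit, and each was lost on leaving out some single array. Slc26a2, a sulphate carrier, fell in HCM on casein by 0.31 ± 0.072, a call lost with set B alone as wild type (adjusted p = 0.0782). Slc20a1 (PiT-1), a sodium-phosphate cotransporter, fell on casein in HCM by 0.49 ± 0.078. Slc4a1, the anion exchanger of red blood cells, fell on casein in wild type by 0.33 ± 0.076. Red blood cell markers had 1 of 3 measured genes lower in that comparison (Hbb-b2, -0.75 ± 0.12) and none higher, with a summed level of 12.240 to 12.997 on soy and 12.459 to 12.656 on casein; the part of blood in the Slc4a1 difference was not tested.

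Zinc and iron carriers included some of the widest diet differences on their brightest probe sets. Of the 16 genes of the metal group, 3 rose and 8 fell on casein in wild type, and 4 rose and 5 fell in HCM. The shares called were 68.8% and 56.2%, against 47% (21.6% higher, 25.4% lower) and 62.1% (31.9% and 30.1%) of all genes. With centred arrays, 5 rose and 5 fell in wild type and 4 rose and 5 fell in HCM. Slc11a2 (DMT1), the proton-coupled iron importer, fell on casein by 0.24 ± 0.055 (wild type) and 0.74 ± 0.059 (HCM), and in HCM on casein by 0.44 ± 0.055 (adjusted p = 2.29e-07). The lowest, median and highest arrays read 7.23, 7.32 and 7.45 in soy wild type, 7.31, 7.36 and 7.56 in soy HCM, 6.95, 7.11 and 7.16 in casein wild type and 6.39, 6.68 and 6.81 in casein HCM. The casein HCM arrays lay below those of every other group. Its other probe set was lower too, at -0.26 for diet in HCM (adjusted p = 0.0013) and -0.24 for HCM on casein (adjusted p = 0.00181). All of these calls on the brighter probe set held in the set-block fit. Tfrc, the transferrin receptor that also serves iron uptake, fell on casein, with log2 differences of -0.34 ± 0.10 in wild type and -0.52 ± 0.11 in HCM.

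Slc39a4 (ZIP4), a zinc importer best known from the intestine, fell on casein by 0.65 ± 0.065 (wild type) and 0.98 ± 0.070 (HCM), and in HCM on casein by 0.45 ± 0.065. Across arrays the lowest, median and highest levels were 8.64, 8.91 and 9.16 in soy wild type, 8.64, 8.77 and 8.99 in soy HCM, 8.11, 8.22 and 8.38 in casein wild type and 7.53, 7.78 and 8.10 in casein HCM. No casein array reached the lowest soy array. Its other probe set was at -0.16 and -0.095 and was not called, so the difference rests on 1 probe set. Slc39a1 (ZIP1), a zinc importer of the cell surface, rose on casein in HCM by 0.78 ± 0.085, but its other probe set fell (-0.25, adjusted p = 0.000729). Slc39a7 (ZIP7), which releases zinc from the endoplasmic reticulum, rose by 0.43 ± 0.065 in HCM. On the efflux side, Slc30a1 (ZnT1), the exporter of the cell surface, fell on casein by 0.27 ± 0.041 and 0.39 ± 0.044 in wild type and HCM. Slc30a3 (ZnT3), known for loading synaptic vesicles with zinc, rose in HCM on soy by 0.30 ± 0.073 and fell on casein by 0.59 ± 0.068. Its lowest, median and highest values were 9.07, 9.12 and 9.28 in soy wild type, 9.28, 9.44 and 9.67 in soy HCM, 8.76, 8.95 and 9.36 in casein wild type and 8.20, 8.42 and 8.52 in casein HCM. On casein HCM did not overlap wild type, and on soy the lowest HCM array stood level with the highest wild-type array. The other, dim probe set of Slc30a3 was at -0.13 on soy and -0.27 on casein. Slc30a4 fell on casein in HCM by 0.25 ± 0.060 and Slc30a5 in wild type by 0.40 ± 0.062, and Slc30a9 rose in HCM on casein by 0.30 ± 0.091, a call lost in the set-block fit (adjusted p = 0.0764) and with set B alone as wild type (adjusted p = 0.239); all 3 belong to the zinc family. Slc39a9 (ZIP9) rose over both genotypes on casein by 0.18 ± 0.038. Slc31a1 (CTR1), the copper importer, was at -0.16, 0.030, -0.24 and -0.046 for HCM on soy, HCM on casein, diet in wild type and diet in HCM. The zinc-binding metallothionein genes Mt1 and Mt2, which are not members, rose on casein in HCM by 1.01 ± 0.12 and 0.44 ± 0.15; in wild type Mt1 rose (0.38 ± 0.11) and Mt2 fell (-0.52 ± 0.14).

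The remaining 27 members carry vitamins, choline, nucleosides, organic ions and other solutes. Of these, 2 rose and 0 fell in HCM on soy, 1 rose and 7 fell on casein, and 4 rose and 10 fell for diet in HCM; the shares called (7.41%, 29.6% and 51.9%) were below those of all genes (25%, 49.6% and 62.1%). Slc23a2 (SVCT2), the sodium-coupled ascorbate carrier of most tissues, rose in HCM on soy by 0.59 ± 0.078 (adjusted p = 5.95e-06) and fell on casein by 0.53 ± 0.072 (adjusted p = 7.01e-07). Levels (lowest, median and highest) were 6.68, 7.05 and 7.13 in soy wild type, 7.37, 7.66 and 7.69 in soy HCM, 6.83, 6.99 and 7.20 in casein wild type and 6.10, 6.53 and 6.75 in casein HCM. HCM did not overlap wild type on either diet, and the wild-type groups differed by 0.014 ± 0.072 (casein minus soy), which was not called. Both HCM calls held in the set-block fit (adjusted p = 0.00507 and adjusted p = 0.000346). The related gene Slc23a3 gave the widest diet difference of any member on its brighter probe set, a rise on casein of 1.78 ± 0.16 (wild type) and 0.90 ± 0.17 (HCM). Its other probe set was at -0.13 and -0.48, the latter called lower, so the direction depended on the probe set.

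Slc44a4, a choline-like carrier known from epithelia, fell on casein by 0.46 ± 0.081 (wild type) and 1.11 ± 0.087 (HCM). It fell in HCM on casein by 0.57 ± 0.081 and was at 0.084 on soy; its dim probe set was lower as well on casein (-0.21, adjusted p = 0.00335). Slc44a2, a choline carrier of many tissues, fell in HCM on casein by 0.38 ± 0.073. The carnitine carrier Slc22a5 (OCTN2), through which cardiomyocytes take up carnitine, was at 0.017 ± 0.065 and 0.029 ± 0.061 for HCM on soy and casein and 0.046 ± 0.061 and 0.059 ± 0.065 for diet, none called. Slc29a1 (ENT1), the equilibrative carrier of adenosine, rose on casein by 0.23 ± 0.052 (wild type) and 0.23 ± 0.056 (HCM); these calls were lost when quantile normalization was added (0.064 and 0.047), and its other probe set was at 0.0080 and -0.18. Slc22a18, an organic cation carrier encoded in an imprinted region, fell in HCM on casein by 0.33 ± 0.060.

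**Figure D4:**
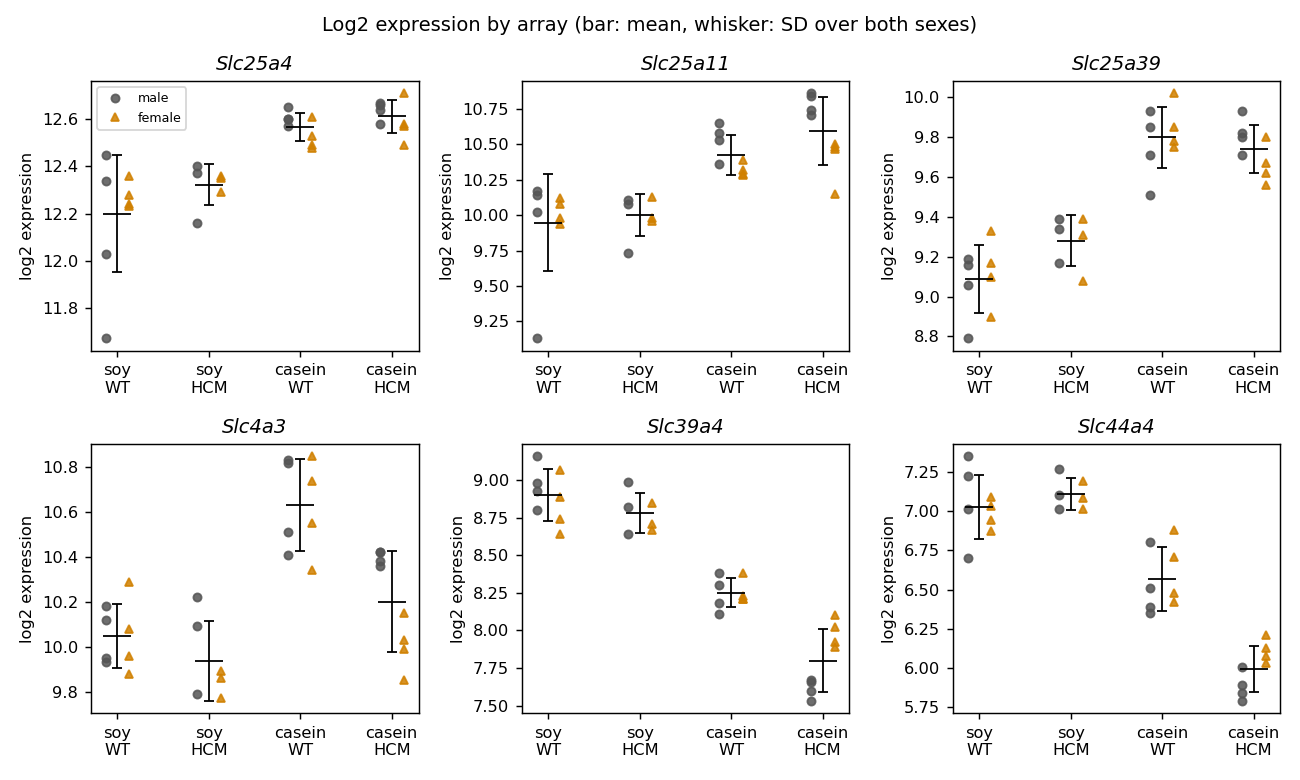
Log2 expression of 6 members on each array (circles male, triangles female) in the 4 combinations of diet and genotype; bars are means and whiskers SD over both sexes (n = 8, or 6 in soy HCM). Slc25a4, Slc25a11 and Slc25a39 were higher on casein, Slc4a3 was highest in casein wild type, and Slc39a4 and Slc44a4 were lower on casein, with casein HCM the lowest.

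In the Golgi, Slc35b2, which imports the sulphate donor PAPS, rose on casein by 0.29 ± 0.045 (wild type) and 0.78 ± 0.048 (HCM), and in HCM on casein by 0.34 ± 0.045; all 3 calls held in the set-block fit. Slc35b1, an ATP carrier of the endoplasmic reticulum, rose on casein in wild type by 0.22 ± 0.055, a call lost with quantile normalization (adjusted p = 0.058), and Slc35c2, linked to GDP-fucose transport, fell in HCM on casein by 0.24 ± 0.048. The CMP-sialic acid carrier Slc35a1 and the acetyl-CoA carrier Slc33a1 were at 0.093 and 0.14 for HCM on soy and 0.25 and -0.14 on casein. Slc35d1, a carrier of UDP-glucuronic acid of the endoplasmic reticulum, fell on casein in HCM by 0.44 ± 0.063. Of the 11 genes of this group, 3 rose and 5 fell in HCM on casein, and 0 rose and 1 fell on soy (72.7% and 9.09%, against 49.6% and 25% of all genes). With centred arrays, 1 rose and 5 fell in HCM on casein, against 21.7% of all genes higher and 29.5% lower. In the set-block fit only Slc35b2 and Slc35c2 of this group kept that call, against 29.3% of all genes called. The scaffolds that tether sodium-proton exchangers and other carriers differed in direction: Slc9a3r1 fell on casein by 0.29 ± 0.052 (wild type) and 0.27 ± 0.056 (HCM), and Slc9a3r2 rose by 0.48 ± 0.075 and 0.78 ± 0.081.

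The HCM comparisons on the 2 diets share no arrays. Of 24 members called on soy and 58 called on casein, 2 were called in the same direction on both (Slc16a1 and Slc32a1) and 9 in opposite directions. These are 1.4% and 6.29% of the members; over all genes 313 (3.79%) were called in the same direction and 827 (10%) in opposite ones, so calls in opposite directions were no more frequent among members. All 9 members were also called for the difference between the diets, as were 55 members in all (23 higher and 32 lower; 38.5%, against 45.1% of all genes, 25% higher and 20.1% lower; 13 higher and 44 lower with arrays centred on their medians). Of the 9, Slc4a4, Slc25a36 and Slc35b2 lost a call when some single array was left out. The other 6 kept both calls when any single array was left out: Slc6a6, Slc23a2, Slc25a44, Slc30a3, Slc12a7 and Slc6a12. Slc6a12, the betaine and GABA carrier BGT1, was lower in HCM on soy (-0.25 ± 0.068) and higher on casein (0.19 ± 0.063, a call lost in the set-block fit, adjusted p = 0.113, and with set A alone as wild type, adjusted p = 0.244). The other 5 rose on soy and fell on casein. Of these, Slc6a6 lost its casein call in the set-block fit, and its other probe set was called higher on casein. The differences between the diets for the 6 were -1.27, -1.12, -0.99, -0.89, -0.82 and 0.44, and each was also called in the set-block fit. On soy alone, Slc6a6 and Slc23a2 kept their HCM call in the set-block fit and the other 4 did not. For the 5 that rose on soy, the casein HCM arrays, which also had the raised poly-A controls, were the lowest group or level with soy wild type.

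**Figure D5:**
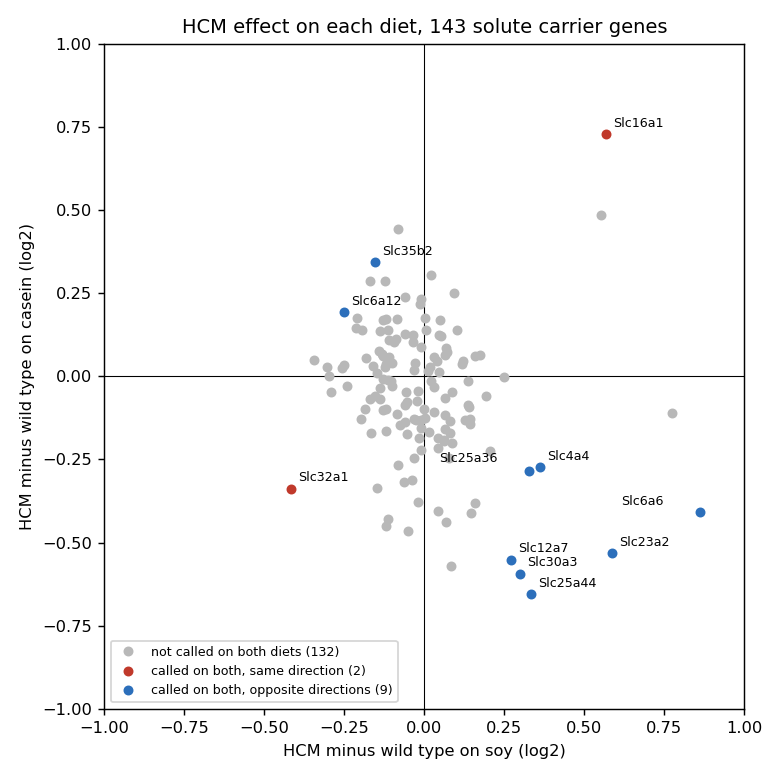
HCM-minus-wild-type log2 difference on casein against that on soy for the 143 members; red points were called on both diets in the same direction (2), blue points in opposite directions (9), and grey points were not called on both. Slc16a1 lies at upper right, and Slc6a6, Slc23a2, Slc25a44, Slc30a3 and Slc12a7 at lower right.

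Within each sex, fewer members passed than in the sexes together. In HCM on soy, 8 members rose and 8 fell in males (13.5% of all genes called) and 2 rose and 2 fell in females (4.11%), with 3 soy HCM arrays in each. In HCM on casein, 10 rose and 25 fell in males (32.3%) and 9 rose and 22 fell in females (33.6%). On casein against soy, 20 rose and 34 fell in wild-type males (40%), 10 rose and 24 fell in wild-type females (25%), 24 rose and 43 fell in HCM males (49.3%) and 19 rose and 40 fell in HCM females (44.1%). No member was called between females and males. Averaged over the 4 combinations of diet and genotype, 0 of 143 members passed (limma; 12 at an unadjusted p under 0.05), against 0.267% of all genes (0.182% higher in females and 0.0848% lower), and differences lay between -0.17 and 0.16. The smallest p belonged to Slc25a51, a mitochondrial NAD carrier, at -0.12 ± 0.037 (adjusted p = 0.268), Slc20a1 at 0.15 ± 0.053 (adjusted p = 0.384) and Slc25a28, an iron carrier of mitochondria, at -0.11 ± 0.041 (adjusted p = 0.426), each female minus male. No member had females and males without overlap (0.0364% of all genes). Within single combinations of diet and genotype 0 members passed as well, against 0.0727% of all genes in soy wild type, 0.0364% in soy HCM, 0.145% in casein wild type and 0.485% in casein HCM. With the array set as a fixed term beside sex the count was again 0. No member was called for a difference between the sexes in the HCM effect (0 of 8251 genes; 12 members at an unadjusted p under 0.05) or in the diet effect (0 of 8251; 17 members). The smallest p for the sex difference in the HCM effect belonged to Slc6a8, Slc6a18 (a neutral amino acid carrier) and Slc12a7, at -0.31, 0.25 and -0.25, and in the diet effect to Slc35b1, Slc22a18 and Slc39a4, at -0.28, 0.28 and 0.29. These tests do not show that the sexes are alike.

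Genes that work with solute carriers were listed beside them. Of 26 measured partners, 1 rose and 3 fell in HCM on soy, 11 rose and 6 fell on casein, 8 rose and 7 fell for diet in wild type, and 13 rose and 6 fell for diet in HCM. All genes were called at 25%, 49.6%, 47% and 62.1% in these comparisons. Bsg (basigin), the chaperone that brings MCT1 to the cell surface, rose in HCM on casein by 0.24 ± 0.060 and was at -0.050 ± 0.065 on soy, against a rise of Slc16a1 on both. Mpc1, a subunit of the mitochondrial pyruvate carrier, fell in HCM on soy (-0.43 ± 0.064) and rose on casein (0.28 ± 0.059). Ucp3, an uncoupling protein of the same fold as the Slc25 carriers, rose on casein in wild type (0.58 ± 0.11) and fell in HCM on casein (-0.33 ± 0.11). Of the sodium pump, whose gradient drives many carriers, Atp1b2 rose in HCM on casein (0.52 ± 0.081) and Fxyd1 (phospholemman) fell (-0.23 ± 0.055). Wnk1, a kinase that acts on cation-chloride cotransporters, rose in HCM on soy (0.58 ± 0.11).

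Cell type markers were called in these comparisons too. Of all genes, 12.3% were called higher and 12.7% lower in HCM on soy, and 26.9% and 22.7% in HCM on casein. For diet these shares were 21.6% and 25.4% in wild type and 31.9% and 30.1% in HCM. The summed cardiomyocyte markers (5 of 5 measured) had log2 levels of 14.56 to 14.91 in soy wild type, 15.03 to 15.16 in soy HCM, 15.11 to 15.28 in casein wild type and 15.29 to 15.40 in casein HCM. All 5 were called higher on casein in both genotypes and in HCM on soy, and 3 of 5 in HCM on casein. Smooth muscle and pericyte markers had 4 of 5 higher in HCM on casein, with sums of 9.78 to 10.39 in wild type and 10.38 to 11.17 in HCM, and fibroblast markers 3 of 5 (11.60 to 11.99 and 11.81 to 12.46). Atrial markers had 3 of 4 higher in HCM on casein (9.21 to 9.98 and 10.06 to 11.64), and 2 of 4 lower in HCM on soy (9.83 to 10.68 and 9.67 to 10.17). Endothelial markers had 3 of 5 higher in HCM on soy (9.72 to 10.28 in wild type and 10.22 to 10.54 in HCM), 3 of 5 higher on casein in wild type (10.25 to 10.53 on casein) and 2 of 5 lower in HCM on casein (10.07 to 10.46 in HCM). Macrophage markers had 1 of 5 higher and 3 lower on casein in wild type (9.78 to 10.32 on soy and 9.53 to 9.78 on casein), and 2 higher and 1 lower in HCM on casein (9.59 to 10.09 in HCM). For diet, smooth muscle markers had 4 of 5 higher in HCM, atrial markers 3 of 4 lower in wild type and 3 of 4 higher in HCM, fibroblast markers 2 of 5 lower in wild type, and liver markers 2 of 3 lower in each genotype. No detection calls were used here, so the absence of a cell type could not be read from these sums, and the part of cell composition in the carrier differences was not tested.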

How the data were processed

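Left ventricle RNA was hybridized to 30 Affymetrix MG_U74Av2 arrays, 1 pool of 2 animals each. Values are log2 intensities as deposited by the authors, and they were made with RMA, as implemented in Expression Console (Affymetrix), per the submitters' processing notes. Software versions were not given in the sources used here, and scanner files were not used. RMA shares information across arrays but has no term for a batch of arrays, so a batch difference can remain. Probe sets were named from the platform annotation, 1 symbol each, 8251 genes. One coefficient per group was fitted with limma 3.58.1 (R 4.3.3, statmod 1.5.0; 22 residual and 6.16 prior degrees of freedom), two-sided, with Benjamini-Hochberg adjustment over all genes and a threshold of 0.05. The script was tested on simulated data. Alternatives were the probe set, a filter on dim genes, quantile normalization, centring, the replicate number or array set as a block, fewer groups, and each array left out. Groups were taken from the labels, and depth does not apply to arrays. Named genes were, in each comparison, the 8 called members with the highest and the 8 with the lowest difference, the 2 largest in each transport group, the 3 with the smallest p where none was called, and a fixed list of heart-relevant carriers, of which some are not reported here; the text does not give every value of each. The members and lists were chosen with earlier results of these data known. Promoter windows came from RefSeq, build GRCm38.p6.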

Additional observations from a re-analysis of the deposited data

Results flagged for a closer look

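In groups of 4 arrays, 1 array lay far from the other 3 in 21 of 420 combinations of a named gene and a group; chance gives about 1 in 20, here 21. Each value below is the log2 level on that array, with the range of the other 3 arrays after it. On male soy wild-type replicate 2, Slc20a1 was at 5.60 (5.96 to 5.98), Slc25a11 was at 9.13 (10.02 to 10.17), Slc25a36 was at 6.04 (6.98 to 7.16), Slc32a1 was at 5.26 (4.40 to 4.48) and Slc6a8 was at 7.24 (7.88 to 7.94). In the female casein wild-type group, Slc12a2 was at 7.16 on replicate 4 (6.65 to 6.72), Slc35b1 was at 8.85 on replicate 4 (8.79 to 8.79), Slc39a4 was at 8.38 on replicate 1 (8.21 to 8.23), Slc3a2 was at 7.93 on replicate 3 (8.10 to 8.13) and Slc6a18 was at 6.68 on replicate 3 (6.27 to 6.34). In the female casein HCM group, Slc25a11 was at 10.15 on replicate 4 (10.47 to 10.50), Slc6a20b was at 6.25 on replicate 2 (6.37 to 6.39) and Slc9a3r1 was at 7.80 on replicate 2 (7.86 to 7.87). In the male casein HCM group, Slc25a20 was at 10.01 on replicate 4 (9.78 to 9.81). In the male casein wild-type group, Slc25a28 was at 7.17 on replicate 4 (6.98 to 7.01), Slc35a1 was at 5.08 on replicate 2 (5.42 to 5.49) and Slc6a8 was at 8.14 on replicate 1 (8.02 to 8.03). In the female soy wild-type group, Slc32a1 was at 4.25 on replicate 1 (4.37 to 4.38) and Slc7a5 was at 7.43 on replicate 1 (7.58 to 7.60). In the male soy wild-type group, Slc4a4 was at 5.31 on replicate 3 (5.15 to 5.17) and Slc7a7 was at 5.84 on replicate 4 (5.79 to 5.80). The cause was not tested.

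The HCM difference on casein minus that on soy was called for 41 of the 70 named members (limma, all genes). Values are log2 differences, and those below 0 mean that HCM stood lower, relative to wild type, on casein than on soy. Called also in the set-block fit and without any single array were, below 0, Slc6a6 (-1.27), Slc23a2 (-1.12), Slc25a44 (-0.99), Slc30a3 (-0.89), Slc12a7 (-0.82), Slc44a4 (-0.65), Slc4a4 (-0.63), Slc11a2 (-0.50), Slc25a25 (-0.45) and Slc25a5 (-0.42), and above 0, Slc39a1 (0.53), Slc35b2 (0.50), Slc50a1 (0.45), Slc6a12 (0.44), Slc38a10 (0.41) and Slc2a8 (0.39). Called without any single array but not in the set-block fit were, below 0, Slc23a3 (-0.88), Slc25a36 (-0.61), Slc12a2 (-0.43), Slc44a2 (-0.36), Slc39a4 (-0.33), Slc33a1 (-0.29), Slc25a51 (-0.26), Slc1a4 (-0.25), Slc35d1 (-0.25), Slc25a3 (-0.23) and Slc35c2 (-0.21), and above 0, Slc1a6 (0.39), Slc25a10 (0.36), Slc18a3 (0.33), Slc7a7 (0.30), Slc6a20b (0.28), Slc5a11 (0.27) and Slc6a9 (0.24). Calls lost without at least 1 single array were those of Slc12a4 (0.29), Slc20a1 (-0.26), Slc26a2 (-0.27), Slc30a5 (0.26), Slc39a7 (0.22), Slc4a3 (-0.31) and Slc9a3r2 (0.30). That of Slc30a5 was lost on leaving out male soy HCM replicate 1 (0.23). That of Slc4a3 was lost on leaving out male soy HCM replicate 1 (-0.27). That of Slc9a3r2 was lost on leaving out male soy HCM replicate 2 (0.28), leaving out male soy HCM replicate 3 (0.28) and leaving out female soy HCM replicate 1 (0.25).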

How the results depend on the processing

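The set-block fit (array set as a random effect, consensus correlation 0.167) lowered the counts of members called from 36 to 8 for the mean HCM difference, 24 to 3 for HCM on soy, 58 to 24 for HCM on casein, 72 to 40 for diet in wild type, 80 to 53 for diet in HCM and 55 to 18 for the difference of the HCM effects between diets. Leaving out the dimmest 40% of genes, which removes members too, gave 38 for HCM on casein, 57 for the mean diet difference, 47 for diet in wild type and 50 for diet in HCM. Without the casein HCM arrays the mean HCM difference, then that on soy with the remaining arrays, gave 23 calls, 8 of them in the same direction as before and 4 in the opposite one. Among named values that were called with all arrays, in that fit the mean HCM difference turned sign for Slc11a2 (0.067), Slc12a7 (0.27), Slc25a25 (0.042), Slc25a44 (0.33), Slc30a3 (0.30), Slc35b2 (-0.15), Slc39a1 (-0.084), Slc44a4 (0.084) and Slc6a9 (-0.011), and the mean diet difference for Slc23a2 (0.014), Slc38a10 (-0.085), Slc50a1 (-0.10) and Slc6a6 (0.40). Leaving out 1 array at a time gave 27 to 40 calls for the mean HCM difference, 16 to 31 for HCM on soy, 50 to 68 for HCM on casein, 87 to 97 for the mean diet difference, 62 to 75 for diet in wild type, 73 to 86 for diet in HCM, 46 to 64 for the difference between diets and 0 for sex and its 2 interactions. No named value that was called with all arrays turned sign, and uncalled values were not checked for this. Deviations of same-numbered arrays of different groups had a median correlation of -0.0022 (99 pairs, from -0.57 to 0.63, 25 over 0.1). For differently numbered arrays the median was 0.011. These medians pool all groups, so pairing by number within a diet and genotype was not tested, and in casein wild type the numbers followed sets A and B. With the replicate number as a block, 32, 20, 56, 92, 72, 79 and 53 members were called in the order of the counts above. The other settings run kept each count within 1.5 times. RNA pooled from 2 animals, 3 or 4 arrays a group and the absence of detection calls limit what dim genes can show.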
